A study of Homo sapiens with 4 samples.

Results

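Translation initiation factors are the proteins that bring the initiator tRNA, the mRNA and the small ribosomal subunit together at a start codon. Their transcripts were compared between control and JARID2-depleted MDA-MB-231 cells, a human breast cancer line of mesenchymal type. The group was chosen by gene symbol alone: every row whose symbol starts with EIF1 to EIF6, without EIF2AK2 and without symbols that end in P and digits. This rule found 51 of the 25133 rows that carry a symbol. It left out 36 further rows of the same name pattern. These were EIF2AK2, 32 pseudogenes, and EIF4EBP1, EIF4EBP2 and EIF4EBP3, whose symbols end the same way and which are described with the regulators. A mean of at least 1 FPKM (fragments per kilobase of annotated exon, scaled to sequencing depth) over the 4 libraries was needed for testing. It was reached by 47 members and missed by EIF1B, EIF2B5, EIF4E1B and EIF4E3. No tested member had group means on either side of 1 FPKM, so none entered through 1 group alone.

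RNA was sequenced from 2 libraries of cells infected with a scrambled short hairpin RNA (shSCR, genotype labelled WT) and from 2 libraries of cells infected with a hairpin against JARID2 (shJARID2, labelled as a JARID2 knockdown). JARID2 is a cofactor of PRC2, the Polycomb complex that places methyl groups on lysine 27 of histone H3. Both groups were grown in Dulbecco's modified Eagle's medium with fetal bovine serum and antibiotics, and both were infected with lentivirus in the presence of Polybrene. The labels give neither the hairpin sequences nor the time after infection. They do not say that replicate libraries are separate cultures, and p-values here rest on the spread among the 4 libraries, which may be technical.

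Initiation on most mRNAs starts when the eIF4 group binds the cap and unwinds the leader, while eIF2 carries the initiator tRNA to the small subunit with eIF1, eIF1A, eIF3 and eIF5. The assembled complex scans to a start codon, eIF2 hydrolyses its GTP and leaves, and eIF5B joins the large subunit. Output is set mainly through phosphorylation of eIF2-alpha, which blocks its recycling by eIF2B, and through the mTOR kinase, which frees the cap-binding protein eIF4E from its inhibitors; in cancer cells eIF4E and its partners are widely studied as points of control.

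Promoter sequence is shown for the 3 members with the largest rises and the 3 with the largest falls that kept their call after correction for GC content and had a single RefSeq window and no near-identical copy. Each line gives 80 bases before and 20 bases from the RefSeq start site (GRCh38.p14), 5′ to 3′ along the gene. The windows are chr3:170908618-170908717 (minus strand) for EIF5A2, chr4:98929114-98929213 (minus strand) for EIF4E, chr14:67360248-67360347 (plus strand) for EIF2S1, chr12:53006376-53006475 (plus strand) for EIF4B, chr11:7987257-7987356 (plus strand) for EIF3F and chr7:2354747-2354846 (plus strand) for EIF3B. Capitals mark the E-box CACGTG, the GC box GGGCGG and the CCAAT box, each on either strand, and a C/T run that begins with a C at the start site. The first 3 genes rose and the last 3 fell.
EIF5A2: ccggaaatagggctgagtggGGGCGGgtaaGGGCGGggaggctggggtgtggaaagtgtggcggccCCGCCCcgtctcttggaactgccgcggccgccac
EIF4E: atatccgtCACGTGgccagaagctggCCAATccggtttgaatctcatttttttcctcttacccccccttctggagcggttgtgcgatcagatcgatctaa
EIF2S1: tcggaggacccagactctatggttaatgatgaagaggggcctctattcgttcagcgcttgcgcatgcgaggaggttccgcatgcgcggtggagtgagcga
EIF4B: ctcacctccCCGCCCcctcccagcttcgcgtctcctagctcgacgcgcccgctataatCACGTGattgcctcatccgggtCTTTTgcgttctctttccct
EIF3F: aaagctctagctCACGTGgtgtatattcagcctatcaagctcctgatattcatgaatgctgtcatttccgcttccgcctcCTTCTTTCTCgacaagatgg
EIF3B: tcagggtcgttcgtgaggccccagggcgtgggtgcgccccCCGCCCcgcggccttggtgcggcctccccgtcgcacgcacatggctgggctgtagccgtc
EIF4B and EIF3F, which fell, each held an E-box and a start-site C/T run of 5 and 10 bases, and EIF4E, which rose, held an E-box and a CCAAT box but started on G. A run of this kind at the start of the mRNA is the hallmark of transcripts under mTOR control (TOP mRNAs); a match is a description of letters and not a measured site.

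In the full RefSeq windows, from 250 bases before to 50 after the start, 43 of the 51 members had an entry. Matches were sought on both strands, different motifs were allowed to overlap, and a gene counted once however many windows or matches it had. The E-box was found in 10 of 43 members (23.3%) and in 8.78% of all 27305 genes with a window, and among tested genes of the whole table in 12.1% of those called higher and 14.5% of those called lower. It was present in 2 of 13 higher members (EIF4E and EIF5A2), in 6 of 14 lower ones (EIF3F, EIF3K, EIF4A3, EIF4B, EIF4G1 and EIF4H) and in 1 of 12 not called. A C at the start followed by at least 4 C or T was found in 10 of 43 members (23.3%) against 5.14% of all genes, 7.04% of tested genes called higher and 7.89% of those called lower. It was present in 2 of 13 higher members, 5 of 14 lower ones and 3 of 12 not called. The ETS site CCGGAAG leaned the other way by count, with 5 of 13 higher and 3 of 14 lower members; it was in 27.9% of members, 12.2% of all genes, and 24.0% and 22.9% of tested genes called higher and lower. The CCAAT box was in 7 of 13 higher and 8 of 14 lower members. It was in 46.5% of members, 39.7% of all genes, and 42.6% and 45.2% of tested genes called higher and lower. The GC box was in 6 of 13 higher and 12 of 14 lower members; its share of 72.1% was above the 48.3% of all genes but below the 75.4% and 82.5% of tested genes called higher and lower. None of these splits was tested. Member promoters had a median GC content of 65.0% against 58.7% over all windows, which was not adjusted for in these shares.

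JARID2 stood at 10.8 FPKM in both shSCR libraries and at 3.88 and 3.91 FPKM in the shJARID2 libraries, a log2 fold change of -1.27 (SE 0.059, limma with Benjamini-Hochberg adjustment, adjusted p = 0.0014; GC-corrected -1.15). The shSCR libraries held 15498106 and 16186955 recovered reads and the shJARID2 libraries 12950317 and 12803776, and tested members rested on at least 21 reads per library. Of 9 genes fixed as markers of this cell line, 8 were at 1 FPKM or more in every library, with SPARC below it and VIM low at 2.10 to 4.20 FPKM. Of 8 luminal or epithelial markers 2 were (FOXA1 and KRT19), and of 5 leukocyte and 4 endothelial markers none; the summed luminal level was 11.7 to 11.9 FPKM in shSCR and 4.14 to 4.22 in shJARID2, and its part in the results below was not tested. Because the samples are bulk RNA, fewer cells of a type and less RNA per cell cannot be told apart.

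Initiation factor transcripts moved in both directions. Of the 47 tested members 16 were higher in shJARID2 (34.0%) and 17 lower (36.2%) at an adjusted p below 0.05, and 14 were not called. Over all 12455 rows tested, 28.0% were higher and 31.6% lower, and either call was made for 70.2% of members and 59.7% of all rows. Each share lies near its background, and the difference was not tested. The members' median log2 fold change on the log2(FPKM + 1) scale, which understates changes of low genes, was -0.06 against -0.02 over all rows, and the median absolute change was 0.40 in both. The libraries of the 2 groups did not overlap for 41 of 47 members (87.2%), as for 82.9% of all rows. With limma-voom on reads recovered from the FPKM steps, 17 members were higher and 21 lower, against 32.7% and 34.3% of all rows (67.1% in either direction). Members were abundant, with a median of 18.7 FPKM against 6.64 over all rows. Before GC correction the largest changes lay in single subunits: EIF3G, EIF4B and EIF3F fell by at least 1.01 on the log2 scale, and EIF5A2 and EIF3C rose by at least 1.0. On GRCh38 (GENCODE release 29) these genes span chr19:10115017-10119918 (EIF3G), chr12:53006158-53042209 (EIF4B), chr11:7970251-8001862 (EIF3F), chr3:170888415-170908693 (EIF5A2) and chr16:28688558-28735730 (EIF3C), and all are annotated as protein-coding.

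Transcript GC content ran with these changes. Across the 47 members the log2 fold change had a Spearman correlation of -0.59 and a Pearson correlation of -0.54 with the median GC content of a gene's annotated transcripts; all points share the same 4 libraries. Of 17 members below 45% GC, 11 were higher and none was lower, with EIF3J (36.9%), EIF3M and EIF4A2 among those not called. Of 18 members between 45% and 52%, 2 were higher and 9 lower, and of 12 members at 52% or more, 3 were higher and 8 lower. Over all tested genes the same 3 ranges held 53.1%, 26.9% and 4.93% higher genes and 5.12%, 20.2% and 67.7% lower ones. After each library was corrected for GC content, 11 members were higher (23.4%, background 22.8%) and 16 lower (34.0%, background 21.5%; either direction 44.2% of all), and the members' median was -0.17 against 0.00 over all 12098 rows so fitted. Of the uncorrected calls 10 rises and 11 falls remained, and no member was called in the opposite direction. Corrected values are given beside the log2 fold changes they bear on. Ratios, spreads and summed levels are of FPKM without GC correction, also where the genes differ in GC content. Levels of different genes also depend on the lengths behind FPKM, which fit the joined exons of all annotated transcripts of a gene. For EIF4E this length is 14067 bases, with a coding length of 744. Whether GC content accounts for a change was not tested. When a library was left out as well, the corrected calls of EIF1AX, EIF4G1, EIF4G2 and EIF5AL1 were lost in all 4 such fits, those of EIF2AK4 and EIF5 in 3, that of EIF4E in 2, and those of EIF1AD, EIF3I, EIF3K and EIF4A3 in 1.

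**Figure D1:**
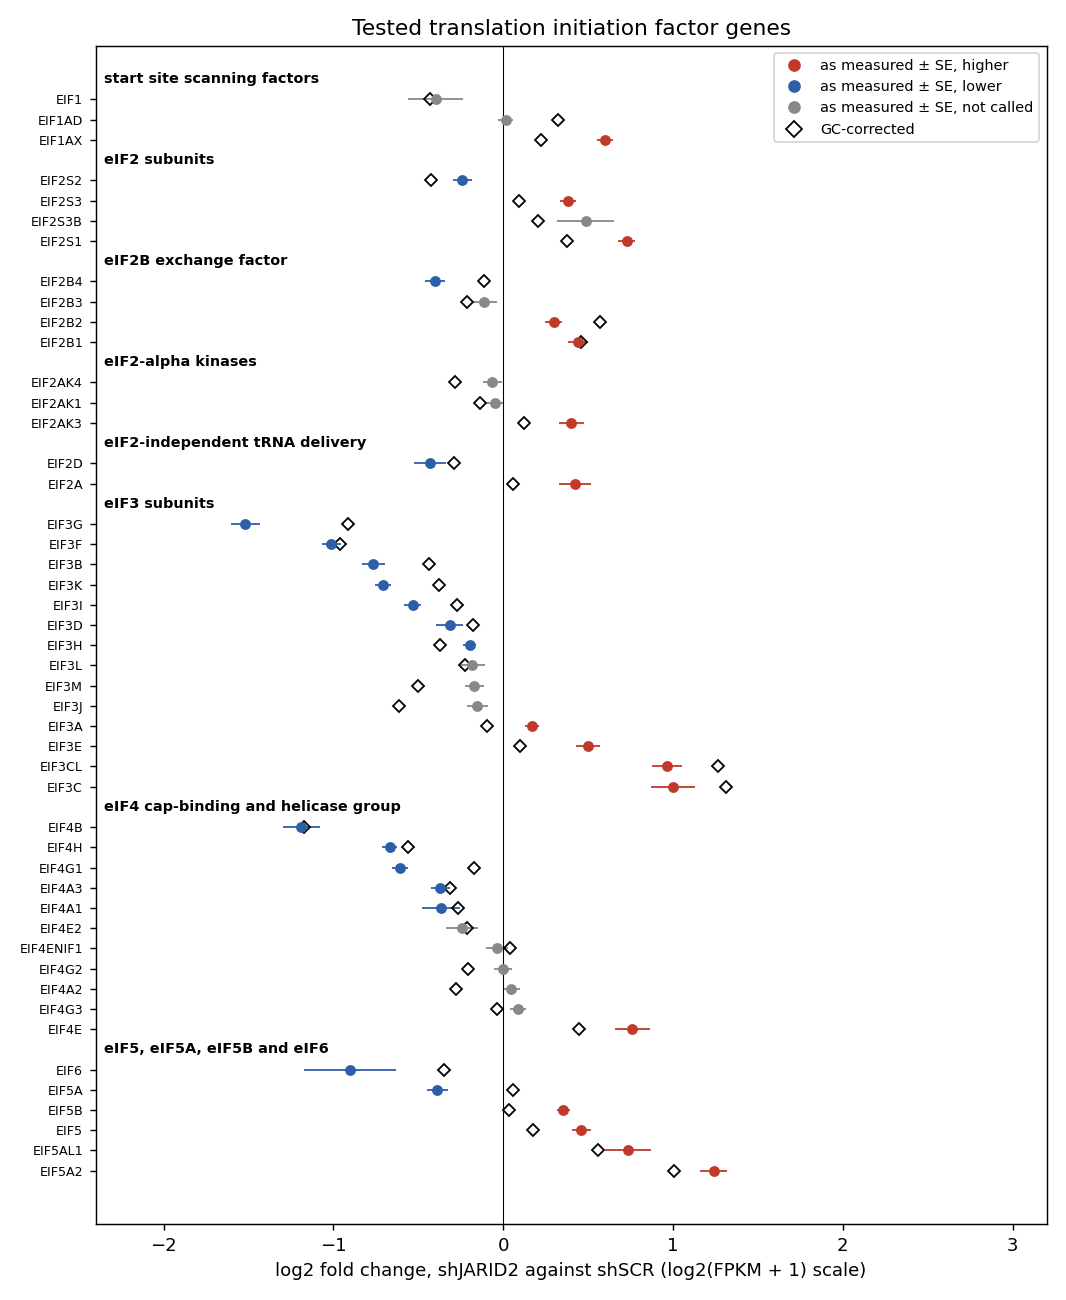
Log2 fold change (shJARID2 against shSCR, log2(FPKM + 1) scale, horizontal axis) of the 47 tested members by complex; filled points with bars are the value ± SE, red called higher, blue called lower, grey not called, and open diamonds are the GC-corrected values. EIF3G lies farthest to the left at -1.52 and EIF5A2 farthest to the right at 1.24, both before correction, with corrected values of -0.91 and 1.01.

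**Figure D2:**
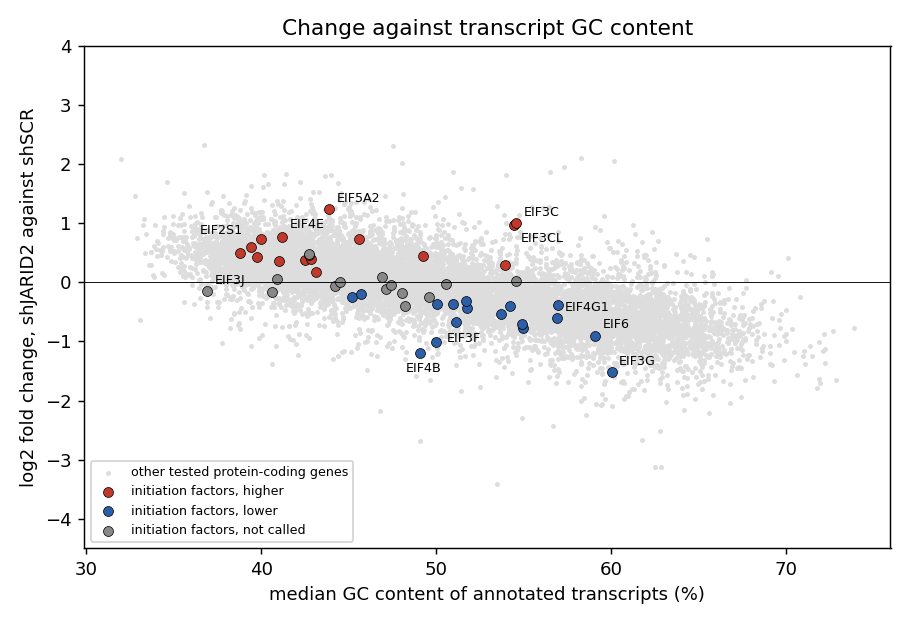
Log2 fold change (vertical axis) against the median GC content of a gene's annotated transcripts in percent (horizontal axis); each point is a gene, grey for other tested protein-coding genes and coloured for the 47 initiation factors by call. Members follow the downward slope of the grey cloud, with EIF3C and EIF3CL above it and EIF4B and EIF3F at its lower edge.

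The start-site scanning factors keep the small subunit open while it reads the leader and check the start codon. EIF1AX, the gene of eIF1A on chromosome X, stood at 17.2 and 17.8 FPKM in shSCR and at 27.0 and 27.1 FPKM in shJARID2. Its level was higher in both shJARID2 libraries, a log2 fold change of 0.60 (SE 0.045, limma with Benjamini-Hochberg adjustment, adjusted p = 0.0016) and 0.23 after GC correction (adjusted p = 0.024; 0.056 to 0.12 with any library also left out). EIF1, the factor that guards start codon choice, was listed at 4.06 and 2.81 FPKM in shSCR and at 2.26 and 2.41 FPKM in shJARID2 (log2 fold change -0.40, GC-corrected -0.43, neither called). The change was -0.19 without shSCR replicate 1 and -0.60 without shSCR replicate 2, where it was called (adjusted p = 0.044), as it was by limma-voom (adjusted p = 0.024). By level it ranked 41 of the 47 tested members, and it has 7 annotated pseudogene copies that could take or lend reads. EIF1B, its paralog with 76.9% identity in coding sequence, was at 0.57, 0.55, 0.85 and 0.49 FPKM in shSCR 1, shSCR 2, shJARID2 1 and shJARID2 2 and was not tested. EIF1AD, whose product has an eIF1A-like domain, was at 23.8 to 24.6 FPKM in the 4 libraries, with overlapping groups; only the GC-corrected value was called (0.32, adjusted p = 0.0085; 0.060 without shSCR replicate 2).

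eIF2 is the GTPase that carries the initiator tRNA, and its subunits moved apart. EIF2S1 encodes eIF2-alpha, the subunit that stress kinases phosphorylate, and stood at 38.7 and 37.1 FPKM in shSCR and at 65.1 and 61.8 FPKM in shJARID2. Both shJARID2 libraries lay well above both shSCR libraries (1.67 times the shSCR mean, log2 fold change 0.73, SE 0.050, limma with Benjamini-Hochberg adjustment, adjusted p = 0.0014), and the call remained after GC correction (0.38, adjusted p = 0.0030). EIF2S2, the beta subunit, fell from 59.4 and 57.1 FPKM to 51.0 and 47.3 FPKM (log2 fold change -0.24, limma adjusted p = 0.021). Its GC-corrected value of -0.43 was also called (limma adjusted p = 0.0043). EIF2S3, the gamma subunit that binds GTP and tRNA, rose from 30.7 and 29.1 FPKM to 39.1 and 39.4 FPKM (log2 fold change 0.38), and its GC-corrected value of 0.09 was not called. The ratio of EIF2S1 to EIF2S2 in FPKM was 0.652 and 0.650 in shSCR and 1.28 and 1.31 in shJARID2. Which subunit is higher depends on the annotated exon lengths behind FPKM, 5651 bases for EIF2S1 and 2656 for EIF2S2. By recovered reads EIF2S1 was above EIF2S2 in both groups (3390 against 2445 in shSCR 1, 4761 against 1754 in shJARID2 1). EIF2S1 has 40.0% GC and EIF2S2 45.2%, and the ratio is without GC correction. EIF2S3B, an autosomal copy of EIF2S3 with 98.2% coding identity, had 2.29 and 1.5 FPKM in shSCR and 3.22 and 2.84 FPKM in shJARID2 (not called, GC-corrected 0.20). Limma-voom called EIF2S3B higher (0.73, adjusted p = 0.0092), and reads could be shared between the pair. Before GC correction, the fall of EIF2S2 was -0.21, -0.27 and -0.19 without shSCR replicate 1, shSCR replicate 2 or shJARID2 replicate 2, and it was not called there.

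eIF2B recharges eIF2 with GTP and is the target that phosphorylated eIF2-alpha blocks. EIF2B1, the alpha subunit, had 15.5 and 15.9 FPKM in shSCR and 20.9 and 22.5 FPKM in shJARID2. EIF2B2, the beta subunit, had 13.8 and 13.9 FPKM in shSCR and 17.7 and 16.9 FPKM in shJARID2. Both rose, by 0.44 (SE 0.056) and 0.30 (SE 0.050) on the log2 scale, and both calls remained after GC correction, at 0.46 and 0.57; EIF2B1 and EIF2B2 have 15.6% and 23.6% of their exon bases under exons of other genes. EIF2B4, the delta subunit, fell from 8.66 and 8.95 FPKM to 6.48 and 6.38 FPKM (log2 fold change -0.40), and the GC-corrected value of -0.11 was not called. EIF2B3, the gamma subunit, stood at 5.52 and 5.81 FPKM in shSCR and 4.98 and 5.38 FPKM in shJARID2 and was not called (-0.11, GC-corrected -0.21). EIF2B5, the catalytic subunit, was listed at 0.011, 0.011, 0.041 and 0.00 FPKM in shSCR 1, shSCR 2, shJARID2 1 and shJARID2 2, although cells need it; a low listed value need not mean low expression, and no comparison was made. Without shSCR replicate 1 or replicate 2 EIF2B2 missed the threshold (adjusted p = 0.054 and 0.055), and without shSCR replicate 2 so did EIF2B4 (0.053).

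Kinases of eIF2-alpha sense different stresses, and 1 of the 3 members was called (59.7% of all rows were called in either direction). EIF2AK3 (PERK), which responds to unfolded protein in the endoplasmic reticulum, had 5.18 and 5.23 FPKM in shSCR and 7.55 and 6.86 FPKM in shJARID2. It rose by 0.40 on the log2 scale (SE 0.074, limma with Benjamini-Hochberg adjustment, adjusted p = 0.011), but neither the GC-corrected value (0.12, adjusted p = 0.20) nor the fits without shSCR replicate 1 or 2 (adjusted p = 0.063 and 0.065) were called. EIF2AK1, the heme-regulated kinase, lay between 35.8 and 38.7 FPKM, and EIF2AK4 (GCN2), which responds to uncharged tRNA, between 15.0 and 16.6 FPKM. Their groups overlapped and neither was called, although EIF2AK4 was lower after GC correction (-0.28, adjusted p = 0.023; up to 0.12 with a library also left out) while EIF2AK1 was not called (-0.14). The pair that can bring initiator tRNA without eIF2 moved in opposite directions before GC correction. EIF2A went from 14.4 and 12.9 FPKM to 19.9 and 17.3 FPKM, a rise of 0.42 that was 0.06 after GC correction and -0.01 when shJARID2 replicate 1 was also left out. EIF2D went from 7.31 and 8.41 FPKM to 5.30 and 5.81 FPKM, a fall with a log2 fold change of -0.43 and a GC-corrected value of -0.29 (adjusted p = 0.051). Neither GC-corrected value was called. Without shSCR replicate 2 or shJARID2 replicate 1, EIF2A (adjusted p = 0.087 and 0.054) and EIF2D (0.090 and 0.064) were not called either.

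eIF3 is the largest initiation complex, a scaffold on the small subunit that holds the tRNA carrier, the scanning factors and the cap-binding proteins together. Of its 14 genes, all of them tested, 4 were higher (28.6%, background 28.0%) and 7 lower (50%, background 31.6%), and the groups overlapped for none of the 14 (82.9% of all rows do not overlap). After GC correction 2 were higher (14.3%, background 22.8%) and 8 lower (57.1%, background 21.5%), and the median log2 fold change of the 14 genes was -0.19 before and -0.32 after correction. Summed over the 14 genes the level, not GC-corrected, was 511 and 513 FPKM in shSCR and 444 in both shJARID2 libraries.

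The peripheral module of eIF3b, eIF3g and eIF3i lies near the mRNA channel and was set apart here after the values were seen. All 3 of its genes were lower (31.6% of all rows were lower). EIF3G, an RNA-binding subunit, had 20.8 and 21.7 FPKM in shSCR and 6.25 and 7.30 FPKM in shJARID2. Its shJARID2 mean was 0.319 times the shSCR mean, the largest fall among the members before GC correction (log2 fold change -1.52, SE 0.085, limma with Benjamini-Hochberg adjustment, adjusted p = 0.0014); at 60% GC it was also the member richest in GC, and its corrected value of -0.91 was smaller than those of EIF4B and EIF3F. EIF3B, the module's scaffold, had 33.6 and 34.7 FPKM in shSCR and 18.6 and 20.8 FPKM in shJARID2 (log2 fold change -0.76, adjusted p = 0.0019, GC-corrected -0.43). EIF3I, a WD-repeat subunit, had 100 and 106 FPKM against 70.0 and 71.7 FPKM (log2 fold change -0.53, GC-corrected -0.27). All 3 calls remained after GC correction, though that of EIF3I was lost when shSCR replicate 2 was also left out (adjusted p = 0.052).

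The remaining subunits, mostly of the PCI and MPN core, were divided. EIF3F, an MPN subunit, had 26.7 and 28.2 FPKM in shSCR and 12.7 and 13.5 FPKM in shJARID2. That is 0.478 times the shSCR mean (log2 fold change -1.01, SE 0.056, limma with Benjamini-Hochberg adjustment, adjusted p = 0.0014), and with a GC content of 50% the corrected value was nearly the same, at -0.96. EIF3K, a small core subunit, fell from 52.4 and 51.0 FPKM to 32.1 and 30.5 FPKM (log2 fold change -0.71; GC-corrected -0.38, with adjusted p = 0.059 when shSCR replicate 1 was also left out). EIF3D, which contacts the cap of some mRNAs, and EIF3H, the other MPN subunit, fell by 0.32 and 0.20. After GC correction EIF3D was at -0.18 and not called (adjusted p = 0.098) and EIF3H at -0.37 and called. In the uncorrected fits without shSCR replicate 1, shSCR replicate 2 or shJARID2 replicate 1 EIF3D was not called (adjusted p = 0.086, 0.12 and 0.050), nor was EIF3H without shSCR replicate 1 or 2 (0.084 and 0.070). EIF3L, EIF3M and the loosely bound EIF3J had log2 fold changes of -0.18, -0.17 and -0.15 and were not called, although EIF3J and EIF3M were lower after GC correction (-0.61 and -0.50). EIF3L, at -0.23 after correction and not called, was called without shSCR replicate 1 (-0.28, adjusted p = 0.038) and lay at -0.09 without shSCR replicate 2; it has 51.8% of its exon bases under other genes. Limma-voom called EIF3L and EIF3M lower (adjusted p = 0.029 and 0.033).

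Rises in eIF3 were seen in 4 genes. EIF3E, a PCI subunit, had 84.4 and 74.7 FPKM in shSCR and 114 and 112 FPKM in shJARID2, a log2 fold change of 0.50 (SE 0.070, limma with Benjamini-Hochberg adjustment, adjusted p = 0.0051) that was 0.10 after GC correction and no longer called. EIF3A, the largest subunit, had 56.7 and 55.1 FPKM against 63.5 and 62.4 FPKM; this change of 0.17 lost its call when any single library was left out (adjusted p = 0.052 to 0.13) and turned to -0.10 after GC correction. EIF3C and EIF3CL are copies on chromosome 16 with 99.9% identity in coding sequence, so reads of the pair can be assigned to either, and they are read here as a sum. EIF3C had 1.44 and 1.30 FPKM in shSCR and 4.18 and 3.34 FPKM in shJARID2, and EIF3CL had 2.71 and 2.70 FPKM against 6.62 and 5.86 FPKM. The sum was 4.16 and 4.0 FPKM in shSCR and 10.8 and 9.21 FPKM in shJARID2, 2.45 times higher on average. The separate rows rose by 1.0 and 0.96, and at 54.6% and 54.4% GC their corrected changes were larger, 1.31 and 1.27. In shJARID2 the sum was listed below EIF3F, the lowest other core subunit, at 12.7 and 13.5 FPKM. Handling of multiply mapped reads is not known, so reads that match both copies may be missing from these values. The annotated exon lengths are also unlike, 6982 bases for EIF3C and 3091 for EIF3CL. The sum is therefore not a level to rank against other subunits.

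By the highest level over the lowest, the spread of eIF3 subunit levels depended on whether the sum of EIF3C and EIF3CL was counted. Among the 11 subunit genes without EIF3C, EIF3CL and EIF3J, the highest level was 5.97 and 6.23 times the lowest in shSCR and 18.2 and 15.3 times in shJARID2. The coefficient of variation over these genes was 59.5% and 58.2% in shSCR and 83.6% and 81.5% in shJARID2. With the sum of EIF3C and EIF3CL added as a 12th value, the highest level was 24.1 and 26.5 times the lowest in shSCR. In shJARID2 it was 18.2 and 15.3 times the lowest, so that direction turned. The turn rests on that sum alone, which was the lowest value in shSCR and whose reads may be missing. The coefficient of variation with the sum was 67.6% and 66.4% in shSCR against 87.6% and 86.2% in shJARID2. EIF3E over EIF3G, the widest pair of the 11 in shJARID2, had ratios of 4.06 and 3.45 in shSCR and 18.2 and 15.3 in shJARID2. The shJARID2 ratios of this pair repeat the highest over lowest levels of the 11 genes. Taking the widest pair in shJARID2 favours a larger ratio there in advance. EIF3E has 38.8% GC and EIF3G 60.0%. Ratios between genes are given throughout as values without GC correction, and no test of them was run.

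**Figure D3:**
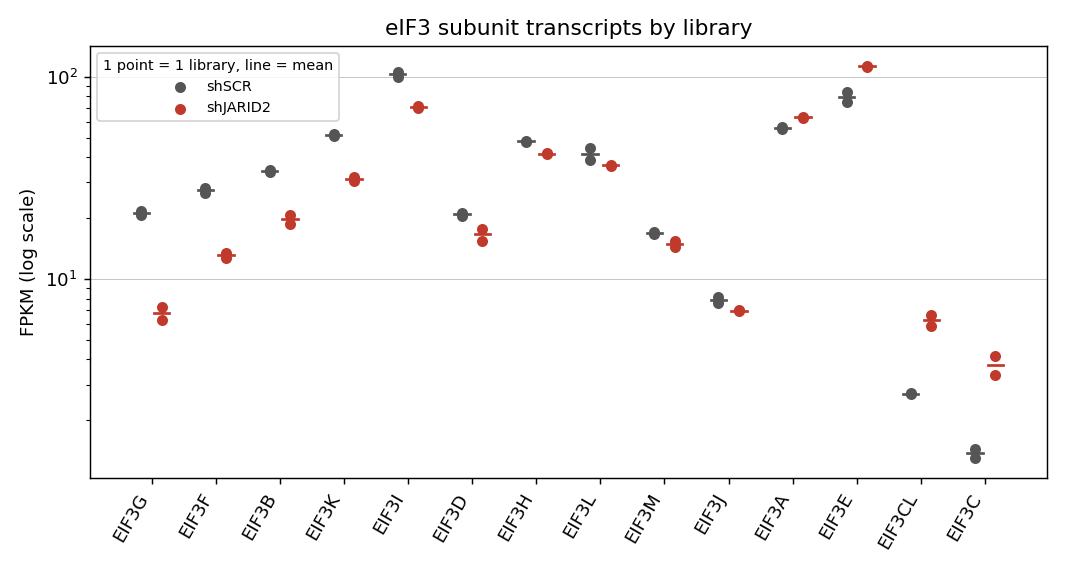
FPKM (vertical log axis) of the 14 eIF3 genes in each library, ordered by log2 fold change; each point is a library and each line the mean of 2, dark for shSCR and red for shJARID2. The red points lie below the dark ones from EIF3G to EIF3J and above them for EIF3A, EIF3E, EIF3CL and EIF3C.

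The eIF4 group binds the cap, bridges it to the ribosome and unwinds the leader. Of 13 genes 11 were tested, of which 1 was higher and 5 lower (9.09% and 45.5%, background 28.0% and 31.6%). After GC correction 1 was higher and 6 lower (9.09% and 54.5%, background 22.8% and 21.5%). The summed level, which was not GC-corrected, was 542 and 532 FPKM in shSCR against 449 and 451 FPKM in shJARID2. EIF4E, the cap-binding protein, was the gene that rose: it had 4.62 and 3.95 FPKM in shSCR and 8.46 and 7.43 FPKM in shJARID2. The shJARID2 mean was 1.85 times the shSCR mean (log2 fold change 0.76, SE 0.10, limma with Benjamini-Hochberg adjustment, adjusted p = 0.0048), and the GC-corrected value of 0.44 was called (adjusted p = 0.018), but not without shSCR replicate 2 or shJARID2 replicate 1 (0.090 and 0.063). EIF4E2, a cap-binding paralog that does not recruit eIF4G, lay at 2.60 and 2.51 FPKM against 2.05 and 1.95 FPKM and was not called (-0.24, GC-corrected -0.21). It was called lower by limma-voom (adjusted p = 0.032) and by limma with a prior variance without a trend. EIF4E1B and EIF4E3 were at 0.047 FPKM or less and at 0.23 to 0.30 FPKM and were not tested. EIF4ENIF1, which binds eIF4E and moves it between compartments, had overlapping groups between 7.66 and 8.36 FPKM.

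Scaffold and helicase genes of the group differed among paralogs. EIF4G1, the main bridge between cap and ribosome, had 164 and 165 FPKM in shSCR and 104 and 111 FPKM in shJARID2. EIF4G2 (DAP5), which lacks the eIF4E-binding region, had 171 and 158 FPKM against 165 and 164 FPKM. EIF4G3, the second cap-bound scaffold, had 23.1 and 24.3 FPKM against 25.4 and 25.0 FPKM. EIF4G1 alone was called (log2 fold change -0.61, SE 0.049, limma with Benjamini-Hochberg adjustment, adjusted p = 0.0017), while EIF4G2 and EIF4G3 had changes of 0.00 and 0.09 (adjusted p = 0.998 and 0.18). At 56.9% GC the corrected fall of EIF4G1 was -0.17, and EIF4G2, at 44.5% GC, had a corrected value of -0.21; both were called lower (adjusted p = 0.021 and 0.022), but neither with any 1 library also left out (0.050 to 0.12 and 0.050 to 0.10). EIF4G3 was at -0.03 after correction and not called. The ratio of EIF4G1 to EIF4G2 was 0.959 and 1.04 in shSCR and 0.629 and 0.680 in shJARID2.

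EIF4B and EIF4H, RNA-binding proteins that stimulate the helicase eIF4A, both fell. EIF4B had 18.0 and 18.5 FPKM in shSCR and 6.65 and 8.31 FPKM in shJARID2, 0.410 times the shSCR mean (log2 fold change -1.19, SE 0.11, limma with Benjamini-Hochberg adjustment, adjusted p = 0.0020). EIF4H had 50.3 and 52.8 FPKM against 31.9 and 32.3 FPKM (log2 fold change -0.67, SE 0.045, adjusted p = 0.0014). GC-corrected values were close to these, -1.17 and -0.56; EIF4B has 9 annotated pseudogene copies and 11.9% of its exon bases under another gene. EIF4A2, a helicase paralog, had 73.7 and 71.0 FPKM against 76.9 and 72.9 FPKM, with overlapping groups and a change of 0.05 that was not called; after GC correction it was -0.28 and called lower (adjusted p = 0.0061). EIF4A1, usually the main helicase, was listed at only 1.91 and 2.07 FPKM against 1.38 and 1.25 FPKM, with 13 annotated pseudogene copies and 48.6% of its exon bases under other genes, among them a read-through transcript with SENP3. Its fall (log2 fold change -0.37, adjusted p = 0.045) was lost without any 1 of the 4 libraries (adjusted p = 0.083 to 0.19) and after GC correction (-0.27, adjusted p = 0.11). EIF4A3, the helicase of the exon junction complex, had 24.0 and 26 FPKM against 18.9 and 19.3 FPKM and was called lower before and after GC correction (-0.37 and -0.32), the latter not without shSCR replicate 2 (adjusted p = 0.060).

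**Figure D4:**
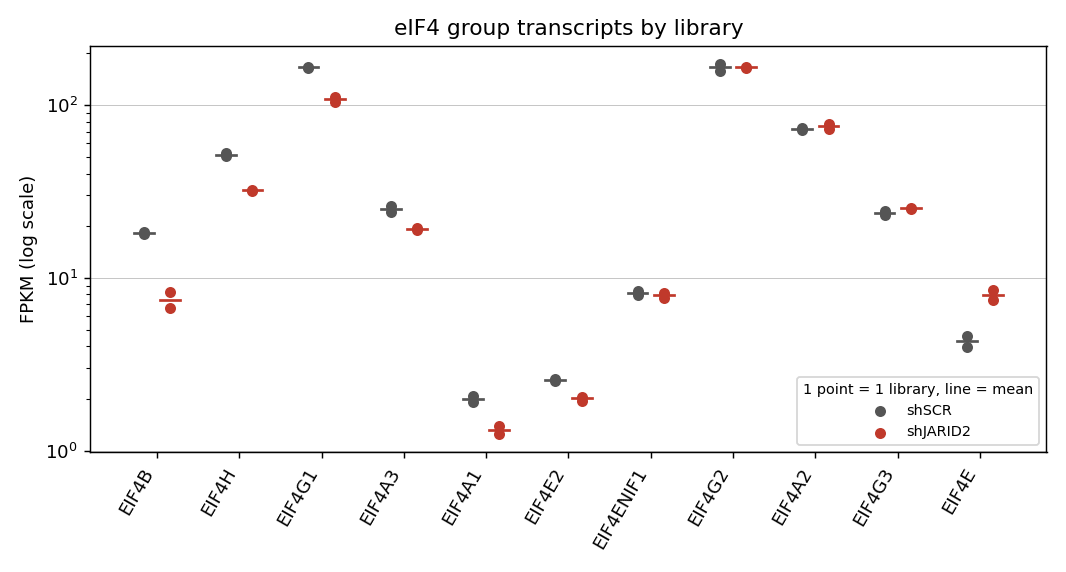
FPKM (vertical log axis) of the 11 tested eIF4 group genes in each library, ordered by log2 fold change; each point is a library and each line the mean of 2, dark for shSCR and red for shJARID2. EIF4B, EIF4H and EIF4G1 are lower in both shJARID2 libraries, EIF4G2 and EIF4A2 overlap, and EIF4E is higher.

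The genes of eIF5, eIF5A, eIF5B and eIF6, which act at GTP hydrolysis, subunit joining and later, were called in all 6 cases, 4 higher and 2 lower (59.7% of all rows were called in either direction). After GC correction 3 were higher and none lower (44.2% of all rows called). The summed level, not GC-corrected, was 96.7 and 93.1 FPKM in shSCR and 117 and 113 FPKM in shJARID2. EIF5, which triggers GTP hydrolysis on eIF2, had 16.7 and 15.9 FPKM in shSCR and 23.4 and 22.1 FPKM in shJARID2. EIF5B, the GTPase of subunit joining, had 30.7 and 31.1 FPKM against 40.0 and 39.7 FPKM. They rose by 0.46 and 0.35, and the GC-corrected values were 0.18, which was called (adjusted p = 0.027; 0.049 to 0.14 with a library also left out), and 0.04, which was not. EIF6, which keeps the large subunit from joining too early, had 4.23 and 3.33 FPKM in shSCR and 0.99 and 2.25 FPKM in shJARID2, on 107, 88, 21 and 47 reads. The shJARID2 libraries differed by more than 2-fold from each other. Its fall of 0.90 (SE 0.27, limma with Benjamini-Hochberg adjustment, adjusted p = 0.044) was not called after GC correction (-0.35), without shSCR replicate 1 or 2 (adjusted p = 0.17 and 0.10), or without shJARID2 replicate 1, where the change was -0.55 (adjusted p = 0.062).

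eIF5A is the only protein known to carry hypusine, a modified lysine, and helps the ribosome through difficult peptide bonds and at termination. EIF5A2, its paralog with 63.3% identity in coding sequence and the more restricted expression in normal tissue, had 8.81 and 8.91 FPKM in shSCR and 23.9 and 20.8 FPKM in shJARID2. Its shJARID2 mean was 2.52 times its shSCR mean. On the uncorrected log2(FPKM + 1) scale this was the largest rise among the members, but EIF3C had a larger FPKM ratio of 2.74, and EIF3C and EIF3CL larger GC-corrected values. The fit gave a log2 fold change of 1.24 (SE 0.079, limma with Benjamini-Hochberg adjustment, adjusted p = 0.0014; GC-corrected 1.01, adjusted p = 0.0020). EIF5A, the common form, had 34.9 and 32.0 FPKM against 25.7 and 24.9 FPKM; its fall (log2 fold change -0.39, adjusted p = 0.0067) turned to 0.06 after GC correction and was not called. EIF5A2 has 43.9% GC and EIF5A 57.0%. Without GC correction, the ratio of EIF5A2 to EIF5A was 0.253 and 0.279 in shSCR and 0.928 and 0.836 in shJARID2. By this ratio the paralogs lay closer together per length in shJARID2. EIF5AL1, a copy of EIF5A with 81.9% coding identity, had 1.38 and 1.87 FPKM against 3.14 and 3.56 FPKM and was called higher before and after GC correction (0.73 and 0.56; corrected adjusted p = 0.031, and 0.051 to 0.11 with any library also left out), on reads that it could share with EIF5A.

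**Figure D5:**
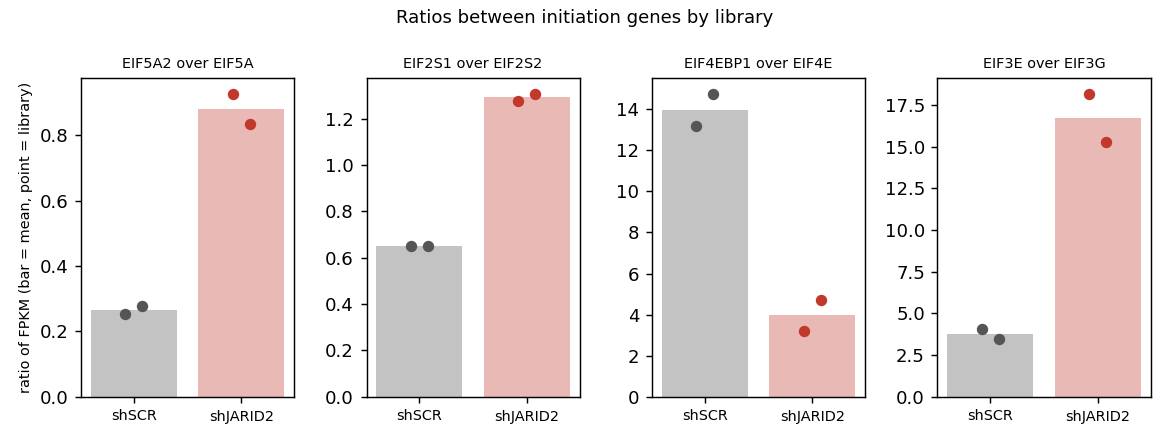
Ratio of FPKM, without GC correction, between 4 pairs of genes (vertical axis, from 0) in shSCR and shJARID2. Bars are means of 2 libraries and points are the libraries. EIF5A2 over EIF5A, EIF2S1 over EIF2S2 and EIF3E over EIF3G are higher in both shJARID2 libraries and EIF4EBP1 over EIF4E is lower, without a test. EIF3E over EIF3G is the widest pair of the eIF3 genes compared in shJARID2, which favours a larger ratio there in advance.

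Regulators and partners of initiation were taken from a list of 33 genes found, of which 31 were tested. Of these 8 were higher and 14 lower (25.8% and 45.2%, background 28.0% and 31.6%), and after GC correction 6 were higher and 10 lower (19.4% and 32.3%, background 22.8% and 21.5%); the median log2 fold change was -0.13, and -0.14 after correction. EIF4EBP1, the mTOR-controlled inhibitor of eIF4E, fell from 61.0 and 58.3 FPKM to 27.2 and 35 FPKM (log2 fold change -0.93, SE 0.13, limma with Benjamini-Hochberg adjustment, adjusted p = 0.0049), but at 61.9% GC its corrected value was -0.23 and not called. Without GC correction, the ratio of EIF4EBP1 to EIF4E, which has 41.2% GC, was 13.2 and 14.8 in shSCR and 3.22 and 4.71 in shJARID2. EIF4EBP2, the second inhibitor, had 36.7 and 33.9 FPKM against 38.2 and 36.7 FPKM and was not called, although its GC-corrected value of -0.16 was (adjusted p = 0.040).

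The kinase MKNK2, which phosphorylates eIF4E, fell from 10.9 and 12.1 FPKM to 3.77 and 4.26 FPKM, a log2 fold change of -1.31 (GC-corrected -0.60, adjusted p = 0.0037). RPTOR, the scaffold of mTOR complex 1, fell from 21.3 and 22.3 FPKM to 9.26 and 10.5 FPKM (-1.07, GC-corrected -0.58). DHPS and DOHH, the pair of enzymes that make hypusine on eIF5A, fell by 0.99 and 1.14; the corrected value of DHPS was -0.58 and called, and that of DOHH, at 67.5% GC, was -0.20 and not called. DHPS has 41.8% of its exon bases under other genes. EIF2AK2 (PKR), the double-stranded RNA kinase of eIF2-alpha, had 21.3 and 19.8 FPKM in shSCR and 25.6 and 25.4 FPKM in shJARID2 (log2 fold change 0.30, adjusted p = 0.010), and its corrected value was -0.07 and not called. AKT1S1, an inhibitor of mTOR complex 1 named here after its values were seen, was called lower before GC correction (-0.46) and higher after it (0.33). In the list of regulators 5 rises and 8 falls kept their calls after GC correction. The rises were those of DENR, PAIP1, BZW2, RPS6KB1 and ABCE1, also named after their values were seen. Their log2 fold changes were 0.61, 0.54, 0.52, 0.51 and 0.56, and 0.44, 0.30, 0.35, 0.23 and 0.17 after correction.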

How the data were processed

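RNA of 4 libraries (2 shSCR, 2 shJARID2) was measured, with groups and replicate numbers taken from the labels. Each deposited file holds FPKM, per the file headers. The submitters' processing notes name Trimmomatic, HISAT2, SAMtools and featureCounts; their versions, settings, genome build, annotation, strand and handling of multiply mapped reads were not given in the sources used here. Of 85553 rows per file, 25133 carry a symbol; the others hold 21.1% to 24.5% of all FPKM and were left out. Depth was recovered from FPKM steps with exon lengths of GENCODE release 29, which 24306 rows matched: 95.9% to 96.3% of values up to 20 reads lay within 0.05 of a whole number. Intervals of counting error were not needed, since no share of reads is reported. Replicates differed by more than sampling noise (chi-square per degree of freedom 3.20 and 3.70).

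Rows with a mean of at least 1 FPKM (12455) entered limma 3.58.1 (R 4.3.3) as log2(FPKM + 1). The fit had a trended prior variance, group as the only term, and 2 residual and 2.36 prior degrees of freedom. Benjamini-Hochberg adjustment was over all rows, and calls are at 0.05. Adjusted p-values are from this fit unless limma-voom, GC correction or a left-out library is named. Each of those fits was adjusted in the same way over its own rows. GC correction subtracted from each library a loess smooth (span 0.3, degree 2) of deviations on transcript GC content. Limma-voom was run on recovered reads of 12101 rows. Coordinates, lengths, pseudogene copies and overlaps are from GENCODE release 29 and promoters from RefSeq (GRCh38.p14; none is shown from chromosome 8). Coding identity is 1 minus edit distance over the longer coding sequence. Reads were named as possibly shared at 6 or more pseudogene copies, at 10% or more overlap, or for a near-identical copy (18 members). Overlaps not given above are those of EIF2AK3 (15.1%), EIF2B3 (10.2%), EIF4A2 (17.9%), EIF4E2 (24.2%), EIF5B (10.8%) and EIF6 (17.4%). The main limma fit was also run on simulated data, and the other steps were not.

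The members and lists were chosen with earlier results of these data known. Members named with full statistics were the called ones, up to 4 per complex and direction with the largest change, and fixed paralog sets; from each related list, up to 4 called genes with the largest change and EIF2AK2, EIF4EBP1, EIF4EBP2 and ATF4. Others are given as counts or were named after their values were seen. Alternatives were other pseudocounts, filters, scalings and prior variances, the replicate block, each library left out, and GC correction alone and with these.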

Additional observations from a re-analysis of the deposited data

How the results depend on the processing

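Over 34 members and 19 alternatives, 505 of 646 comparisons kept direction and side of the threshold, 109 lost a call, 5 gained one and 27 changed sign. EIF2S1, EIF2B1, EIF3C, EIF3CL and EIF5A2 were called higher, and EIF3B, EIF3F, EIF3G, EIF4B and EIF4H lower, under all 19. Precision is limited by 2 libraries per group; members listed at low levels (EIF6, EIF4A1) rest on few reads. In the fits that leave out a library, the lone library of a group is assumed to vary like the others. No cause was tested.

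Members called higher numbered 16; leaving out a library gave 12 to 15, GC correction 8 and 6 without shSCR replicates 1 and 2 and 7 and 9 without shJARID2 replicates 1 and 2, and leaving out members with possibly shared reads 8. Members called lower numbered 17 and with a library left out 11 to 15 (11 without shSCR replicate 2). Higher eIF3 genes numbered 4, but 2 under GC correction, alone, with the replicate block or with any library left out, and 2 without shared reads. Higher eIF4 genes numbered 1 and 0 under GC correction without shSCR replicate 2 or shJARID2 replicate 1; lower ones numbered 5 and were 3 without shSCR replicate 2 in that fit and 3 without shared reads. Counts without shared reads are of fewer genes. Of the 29 tested members then left, 27.6% were higher (28.0% of all rows) and 44.8% lower (31.6% of all rows). The members' median of -0.064 was -0.037 with no filter and -0.040 with median-ratio scaling. It was -0.17 under GC correction with or without the replicate block, and -0.10 to -0.063 with a library left out. With GC correction it was -0.15 and -0.16 without shSCR replicates 1 and 2 and -0.13 and -0.18 without shJARID2 replicates 1 and 2.

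Signs changed under GC correction, alone and with the replicate block, for EIF3A (-0.097), EIF4A2 (-0.28), EIF4G3 (-0.034) and EIF5A (0.056). They also changed in GC-corrected fits without shSCR replicate 1 (EIF3A -0.096, EIF4A2 -0.27, EIF4G3 -0.068, EIF5A 0.14), shSCR replicate 2 (EIF3A -0.097, EIF4A2 -0.28), shJARID2 replicate 1 (EIF3A -0.090, EIF4A2 -0.30, EIF4G3 -0.043, EIF2A -0.014) and shJARID2 replicate 2 (EIF3A -0.10, EIF4A2 -0.25, EIF4G3 -0.024, EIF5A 0.11). EIF4G2 was 0.020 after rescaling over named rows, 0.026 with median-ratio scaling, 0.020 with limma-voom, and -0.058 to 0.058 with a library left out. Replicates share only a number: deviations of same-numbered libraries correlated at 0.0291, and the replicate block gave 17 higher and 15 lower members, gaining EIF2S3B and losing EIF4A1 and EIF6.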

Other observations

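The steps that follow initiation were taken from a list of elongation and termination factors, of which 12 genes were found and tested: 5 were higher and 6 lower (41.7% and 50%, background 28.0% and 31.6%), and after GC correction 3 and 6 (25% and 50%, background 22.8% and 21.5%). EEF2, the translocase of elongation, had 369 and 404 FPKM in shSCR and 109 and 120 FPKM in shJARID2, a log2 fold change of -1.75 (SE 0.075, limma with Benjamini-Hochberg adjustment, adjusted p = 0.0014; GC-corrected -1.23). This is a larger fall than that of any initiation factor. EEF1A2, the tissue-restricted carrier of aminoacyl-tRNA, had 4.10 and 4.97 FPKM against 0.94 and 1.26 FPKM (-1.40, GC-corrected -0.67). EEF1D, a subunit of its exchange factor with 34.0% of its exon bases under other genes, had 22.1 and 22.8 FPKM against 10.5 and 11.9 FPKM (-0.95, GC-corrected -0.24). EEF1E1, a scaffold protein of the tRNA synthetase complex, rose from 10.5 and 10.0 FPKM to 23.6 and 21.4 FPKM (1.06, GC-corrected 0.73). All 4 calls remained after GC correction.

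Genes that the transcription factor ATF4 controls when eIF2-alpha is phosphorylated were listed as a readout of the integrated stress response, with 17 found and 13 tested. Of these 3 were higher and 8 lower (background 28.0% and 31.6%), and after GC correction 1 was higher and 3 lower (background 22.8% and 21.5%). ATF4 had 107 and 105 FPKM in shSCR and 84.6 and 85.8 FPKM in shJARID2 (log2 fold change -0.31, SE 0.038, limma with Benjamini-Hochberg adjustment, adjusted p = 0.0036), which turned to 0.04 after GC correction and was not called. DDIT4, an inhibitor of mTOR complex 1, fell from 24.8 and 24.2 FPKM to 8.29 and 7.74 FPKM (-1.50, GC-corrected -0.68 and still called). ATF5, CHAC1 and CEBPB fell by 0.93, 0.90 and 0.79, and their GC-corrected values of -0.21, -0.20 and 0.08 were not called. Exons of other genes cover 41.2% of the exon bases of DDIT4, 23.7% of those of ATF5 and 11.8% of those of CEBPB. TRIB3 and XPOT were named after their values were seen: TRIB3 was higher before and after correction (0.46 and 1.16), and XPOT was higher before it (0.14) and lower after it (-0.19).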
